A study of Arabidopsis thaliana with 12 samples.

Results

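Wild-type Arabidopsis thaliana seedlings were compared with and without the volatiles of GB03, a Bacillus strain that promotes plant growth. The labels name a Y plate, a divided dish in which bacteria and plants can be kept apart so that volatiles cross through the air. The comparison took 6 of the 12 libraries of the series, 3 treated and 3 untreated biological replicates, and covered the 20736 of 33602 genes in the deposited table that passed a filter on low counts. Both groups were the Col-0 accession with no transgene or mutation named in the labels. Murashige and Skoog medium at reduced strength with 1% sucrose was used, kept at 22 °C on a day of 16 h light and a night of 8 h. Seedlings moved at an age of 5 days to the divided plate, stayed there for 2 days with or without GB03, and were harvested whole at 7 days. The other 6 libraries came from gp1-2, a single T-DNA insertion line (SAIL_209_D07) in that background, grown with and without GB03 in the same way. These gp1-2 libraries enter below through the shared estimate of spread and through a test of whether a gene's response differed from that of wild type. The series asks what part a stearoyl-ACP desaturase, a plastid enzyme of fatty acid synthesis, has in the interaction with beneficial rhizobacteria.

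Plants meet bacterial volatiles as a blend of small alcohols, ketones, esters, sulphur compounds and carbon dioxide that enters through the air. Such blends are known to enlarge Arabidopsis rosettes, to raise iron uptake and photosynthetic capacity and to alter salt tolerance, and acetoin and butanediol are among the best known compounds of Bacillus. A plant that receives reduced sulphur or carbon from the air, or that grows faster, adjusts the genes by which it takes up and assimilates nutrients. Most of these pathways are read from a few marker genes whose regulation is well described, and the values below are grouped by such lists.

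Total counts ran from 11158051 to 15839067 per wild-type library. Log2 CPM (counts scaled to a common library total after scaling by TMM, the trimmed mean of M-values) correlated across genes at 0.985 to 0.994 within a group and at 0.961 to 0.974 between groups, where genes are not independent replicates. The first principal component of the 6 libraries held 64.4% of the variance and separated treated from untreated seedlings, which lay at 32.1 to 39.6 and at -39.3 to -27.0. With volatiles, replicate 3 lay apart, with chi-square values per degree of freedom of 15.3 and 13 against replicates 1 and 2 and of 2.58 between those. Without bacteria the values were 8.10, 12.8 and 9.28 for replicates 1 and 2, 1 and 3, and 2 and 3, with replicates 1 and 3 farthest apart. Of 8 reference genes, 5 were not called, GAPC1 was higher (log2 fold change 0.55), and UBQ10 (-0.38) and ACT2 (-0.29) were lower. ACT2 lost its call without untreated replicate 3 or treated replicate 1 or 2 (edgeR adjusted p 0.0642 to 0.0724). The labels name whole seedlings, and markers of shoot and root cells were both present. Root hair markers summed to 94.3 to 130.4 CPM without bacteria and to 116.4 to 132.8 CPM with volatiles, root endodermis markers to 45.3 to 49.5 and 36.1 to 42.5 CPM, and stomatal lineage markers to 50.5 to 60.3 and 50.5 to 54.4 CPM. The 5 seed storage genes summed to at most 0.86 CPM in any library. In whole seedlings, fewer cells of a type and less RNA per cell cannot be told apart.

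Of 20736 genes tested with edgeR's quasi-likelihood test, 6245 (30.1%) were called at a Benjamini-Hochberg adjusted p under 0.05. Of all genes tested, 14.8% were higher and 15.3% lower with volatiles, and the median log2 fold change was 0. An absolute log2 fold change of 1 or more was reached by 1258 called genes, 6.07% of those tested, of which 519 were higher and 739 lower. Which direction held more genes depended on the scaling, with 3063 higher and 3182 lower here and 3474 higher and 2778 lower under upper-quartile normalization. These shares are the background against which the counts of each list are read. The lists were chosen with earlier results of these data known, so a count above its share describes the list and tests nothing. Values in the text are CPM in replicates 1, 2 and 3, mean ± SD with n = 3, and log2 fold changes with their standard error.

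**Figure D1:**
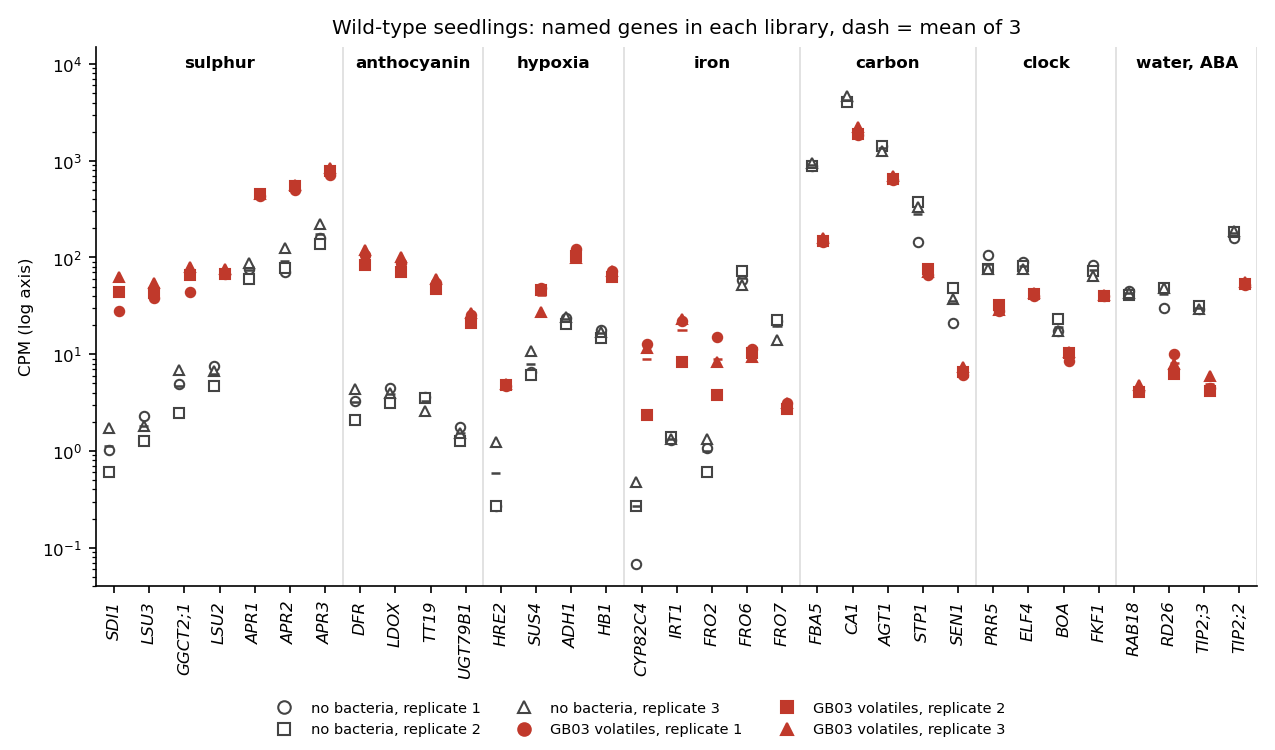
CPM on a log axis of 33 genes named in the text, in each of the 3 untreated (open grey) and 3 treated (filled red) wild-type libraries, with marker shape giving the replicate and a dash the mean. For every gene shown the untreated and treated libraries do not overlap. The rule that named the largest rises and falls required this of SDI1, LSU3, DFR, LDOX, TT19, UGT79B1, CYP82C4 and RAB18. The others were picked from genes named for called changes, so the lack of overlap describes the points drawn and tests nothing. CYP82C4 lies at 2.37 CPM in treated replicate 2 and at 11.6 and 12.9 CPM in the other treated libraries.

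Genes of sulphur supply were mostly higher with volatiles. Plants take up sulphate through SULTR transporters, activate it through ATP sulphurylase (APS), reduce it through APS reductase (APR) and sulphite reductase (SIR), and build cysteine, methionine, glutathione and glucosinolates from it. A set of marker genes responds when that supply falls short. Of 18 sulphur deficiency markers, 12 were higher and 2 lower with volatiles, with a median log2 fold change of 1.45. SDI1 (AT5G48850; chromosome 5, 19805437 to 19807853 in TAIR10.1), which restrains glucosinolate synthesis under sulphur shortage, was at 1.01, 0.604 and 1.72 CPM without bacteria and 28.1, 44.1 and 63 CPM with volatiles (log2 fold change 5.41 ± 0.46, edgeR adjusted p 9.2e-07). Its treated values spread from 28.1 to 63.0 CPM, and all of them lay far above the highest untreated library. LSU3, a member of the small LOW SULFUR protein family, was at 2.3, 1.27 and 1.82 CPM without bacteria and 37.8, 42.6 and 55.1 CPM with volatiles (4.65 ± 0.22, edgeR adjusted p 3.8e-09). LSU2 was at 7.5, 4.69 and 6.69 CPM without bacteria and 67.7, 67.6 and 76.2 CPM with volatiles (3.49 ± 0.19, edgeR adjusted p 9.8e-09). GGCT2;1, which degrades glutathione in the cytosol, was at 4.87, 2.48 and 6.88 CPM without bacteria and 43.6, 66.5 and 79 CPM with volatiles (3.78 ± 0.29, edgeR adjusted p 2.9e-07). In each of these 4 genes no treated library overlapped an untreated one, which the rule for the largest rises required of SDI1 and LSU3. The lower members were SULTR2;1, a transporter of the vascular tissue (-0.35), and SERAT3;1, a serine acetyltransferase (-0.51), both named after their values were seen. The main root uptake transporters SULTR1;1 and SULTR1;2, also named after their values were seen, were not called at 0.09 and 0.14.

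Genes of the assimilation pathway were mostly higher too. Of 14 sulphate assimilation genes, 9 were higher and 2 lower, with a median of 0.52. The 3 APS reductase genes, which encode the step that controls flux through the pathway, had the largest changes of the list. APR1 was at 75.8, 59.3 and 87.7 CPM without bacteria and 429, 457 and 455 CPM with volatiles (2.59 ± 0.13, edgeR adjusted p 5.7e-09). APR2 was at 70.8, 78 and 124 CPM without bacteria and 494, 548 and 563 CPM with volatiles (2.56 ± 0.17, edgeR adjusted p 9.3e-08). APR3 was at 159, 139 and 222 CPM without bacteria and 719, 791 and 839.6 CPM with volatiles (2.18 ± 0.15, edgeR adjusted p 8.8e-08). APR3 is also among the 10 called genes with the largest difference in CPM. APS3, an ATP sulphurylase, went from 22.8 ± 2.05 to 59.4 ± 7.36 CPM (1.38 ± 0.11, edgeR adjusted p 5.6e-07). The summed CPM of the 14 genes was 2025 to 2339 without bacteria and 4126 to 4406 with volatiles, so the groups did not overlap. Among the same 10 genes, MTO3, which makes the methyl donor S-adenosylmethionine from methionine, was at 637, 796 and 991 CPM without bacteria and 1501, 1658 and 1925 CPM with volatiles (1.07 ± 0.17, edgeR adjusted p 0.00021). Untreated replicate 3 had the highest untreated level of MTO3 and of all 3 APR genes.

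Glucosinolates are sulphur-rich defence compounds of the cabbage family, made from methionine (aliphatic) or tryptophan (indole). Of 17 aliphatic genes, 11 were higher and 1 was lower, with a median of 0.77. CYP79F1, which makes the first committed product from chain-elongated methionine, went from 95.4 ± 16.4 to 249 ± 17.65 CPM (1.39 ± 0.12, edgeR adjusted p 9.2e-07). MAM1, the enzyme of side-chain elongation, went from 245 ± 55.3 to 614 ± 27.6 CPM (1.33 ± 0.13, edgeR adjusted p 2.5e-06), and IMD1, a dehydrogenase of the same elongation cycle, from 133 ± 23.8 to 326 ± 32 CPM (1.3 ± 0.12, edgeR adjusted p 2.2e-06). None of the 3 MYB factors that activate the branch was called higher. MYB76 was called lower at 3.18, 1.34 and 2.39 CPM in untreated and 1.07, 0.724 and 1.49 CPM in treated replicates (-1.06 ± 0.36, edgeR adjusted p 0.036), and its groups overlapped. The call of MYB76 was lost without untreated replicate 1 or 3 or treated replicate 1 or 2 (edgeR adjusted p 0.069 to 0.2). MYB28 and MYB29, named after their values were seen, were not called at -0.22 and -0.26. The genes with the largest CPM differences include GSTU20 and NIT1. GSTU20, a glutathione transferase of the tau class, was at 279, 237 and 316 CPM without bacteria and 1098, 1064 and 1290.0 CPM with volatiles (2.05 ± 0.13, edgeR adjusted p 6.1e-08). NIT1, a nitrilase that acts on indole-3-acetonitrile, was at 393, 302 and 390.3 CPM without bacteria and 906, 883 and 1009 CPM with volatiles (1.37 ± 0.10, edgeR adjusted p 2.9e-07).

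The indole branch and camalexin, a related antifungal compound, showed no common direction. Of 17 genes, 4 were higher and 6 lower, with a median of -0.30, which was -0.13 without untreated replicate 3. CYP71A12, a cytochrome P450 of camalexin-type indole metabolism, rose from 5.99 ± 1.55 to 24.9 ± 0.771 CPM (2.08 ± 0.16, edgeR adjusted p 4.3e-07), and CYP81F1, which hydroxylates indole glucosinolates, from 5.87 ± 0.419 to 10.3 ± 1.04 CPM (0.82 ± 0.15, edgeR adjusted p 0.00085). IGMT1, which methylates the hydroxylated product, fell from 16.9 ± 0.967 to 3.57 ± 0.044 CPM (-2.24 ± 0.12, edgeR adjusted p 1.2e-08). MYB51, the main activator of the branch in shoots, was at 49.8, 49 and 23.61 CPM without bacteria and 10.4, 11.7 and 7.69 CPM with volatiles (-2.05 ± 0.26, edgeR adjusted p 3.5e-05), with untreated replicate 3 well below untreated replicates 1 and 2.

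Anthocyanin genes were higher almost throughout. Anthocyanins are red pigments built on the flavonoid skeleton, with DFR and LDOX as the late enzymes, glycosyltransferases and acyltransferases that decorate the product, and the glutathione transferase TT19 that carries it to the vacuole. The MYB factor PAP1 and the bHLH factor TT8 switch the late genes on. Of 17 flavonoid and anthocyanin genes, 15 were higher and none was lower, with a median of 1.43. DFR (AT5G42800; chromosome 5, 17164093 to 17166032 in TAIR10.1) was at 3.25, 2.08 and 4.4 CPM without bacteria and 105, 84.6 and 119 CPM with volatiles (log2 fold change 5.03 ± 0.22, edgeR adjusted p 1.8e-09). LDOX was at 4.46, 3.15 and 4.01 CPM without bacteria and 87.4, 70.3 and 102 CPM with volatiles (4.48 ± 0.16, edgeR adjusted p 1.5e-10). TT19 was at 3.65, 3.55 and 2.58 CPM without bacteria and 54.4, 47.6 and 59.5 CPM with volatiles (4.02 ± 0.18, edgeR adjusted p 1.8e-09). AT4G14090, annotated as a UDP-glycosyltransferase, was at 2.16, 2.08 and 2.29 CPM without bacteria and 39.4, 38.4 and 40.2 CPM with volatiles (4.18 ± 0.15, edgeR adjusted p 1.5e-10). UGT79B1, which adds xylose to anthocyanins, was at 1.76, 1.27 and 1.53 CPM without bacteria and 25.6, 21.1 and 26.7 CPM with volatiles (4.0 ± 0.18, edgeR adjusted p 2.9e-09). In all 5 genes every treated library lay above every untreated one, which the rule for the largest rises required of these genes. Treated replicate 2 was the lowest of its group in each. The early genes of the pathway, named after their values were seen, were called higher with CHS at 0.50, CHI at 0.55 and F3H at 0.46. The regulators TT8 (2.17) and PAP1 (1.85), named in the same way, were called higher.

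Core hypoxia genes were mostly higher. Plant cells sense low oxygen through ERF-VII factors, which the PCO oxidases mark for destruction while oxygen is present, and the core response supports fermentation through alcohol dehydrogenase (ADH1), pyruvate decarboxylase (PDC1) and sucrose synthase. Of 18 core hypoxia genes tested, 14 were higher and none was lower, with a median of 1.33. HRE2, an ERF-VII factor, was at 0.27, 0.268 and 1.24 CPM without bacteria and 4.67, 4.8 and 4.98 CPM with volatiles (3.16 ± 0.40, edgeR adjusted p 3.6e-05), with untreated replicate 3 above the other untreated libraries. SUS4, a sucrose synthase, was at 6.62, 6.17 and 10.9 CPM without bacteria and 48.7, 46.4 and 27.1 CPM with volatiles (2.4 ± 0.25, edgeR adjusted p 6.7e-06), where treated replicate 3 was the lowest of its group and still above all untreated libraries. ADH1 was at 23.5, 20.7 and 24.4 CPM without bacteria and 122, 104 and 98.4 CPM with volatiles (2.25 ± 0.13, edgeR adjusted p 1.5e-08). HB1, a haemoglobin that scavenges nitric oxide, was at 17.64, 14.8 and 17 CPM without bacteria and 72, 62.2 and 73.1 CPM with volatiles (2.07 ± 0.13, edgeR adjusted p 3.9e-08). The summed CPM of the listed genes was 496.5 to 558.3 without bacteria and 836.8 to 969 with volatiles.

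Iron genes moved in both directions. Roots reduce ferric iron with FRO2, import it through IRT1 and secrete coumarins hydroxylated by CYP82C4, all under the factor FIT and its bHLH partners, while FRO6 and FRO7 reduce iron at the leaf cell surface and the chloroplast. Of 23 uptake and regulatory genes tested, 8 were higher and 4 lower, with a median of 0.38, which was 0.22 without treated replicate 3 and 0.13 without both replicates 3. CYP82C4 was at 0.0676, 0.268 and 0.478 CPM without bacteria and 12.9, 2.37 and 11.6 CPM with volatiles (5.12 ± 0.75, edgeR adjusted p 0.00024). IRT1 was at 1.28, 1.41 and 1.34 CPM without bacteria and 22, 8.29 and 23.1 CPM with volatiles (3.72 ± 0.41, edgeR adjusted p 1.0e-05). FRO2 was at 1.08, 0.604 and 1.34 CPM without bacteria and 14.9, 3.75 and 8.34 CPM with volatiles (3.19 ± 0.46, edgeR adjusted p 0.00011). In all of these, treated replicate 2 was the lowest treated library. It lay above every untreated one, which the rule for the largest rises required of CYP82C4. FIT, listed as FRU and named after its values were seen, was not called (0.02). BHLH101, one of FIT's partners, went the other way, from 3.84 ± 1.46 to 0.761 ± 0.574 CPM (-2.33 ± 0.44, edgeR adjusted p 0.00097). The count of lower members was 2 or 3 whenever 1 wild-type library was left out. It was 2 under upper-quartile normalization and without untreated replicate 2 or treated replicate 1 or 2. Of 10 genes of iron storage and leaf ferric reduction, none was higher and 4 were lower. FRO7 was at 21.9, 22.7 and 14.2 CPM without bacteria and 3.14, 2.7 and 3.1 CPM with volatiles (-2.72 ± 0.26, edgeR adjusted p 2.8e-06). FRO6 was at 59.1, 72.2 and 51.9 CPM without bacteria and 11.3, 10.3 and 9.37 CPM with volatiles (-2.57 ± 0.23, edgeR adjusted p 1.2e-06). VTL5, a vacuolar iron transporter, fell from 37.9 ± 5.03 to 22.2 ± 1.83 CPM (-0.78 ± 0.12, edgeR adjusted p 0.00017). VTL1, of the same family, was called at -0.45, a call near the threshold (edgeR adjusted p 0.041). With any 1 of the 6 libraries left out, VTL1 was not called (edgeR adjusted p 0.057 to 0.132). The ferritins FER1 to FER4, which store iron in plastids, were not called.

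**Figure D2:**
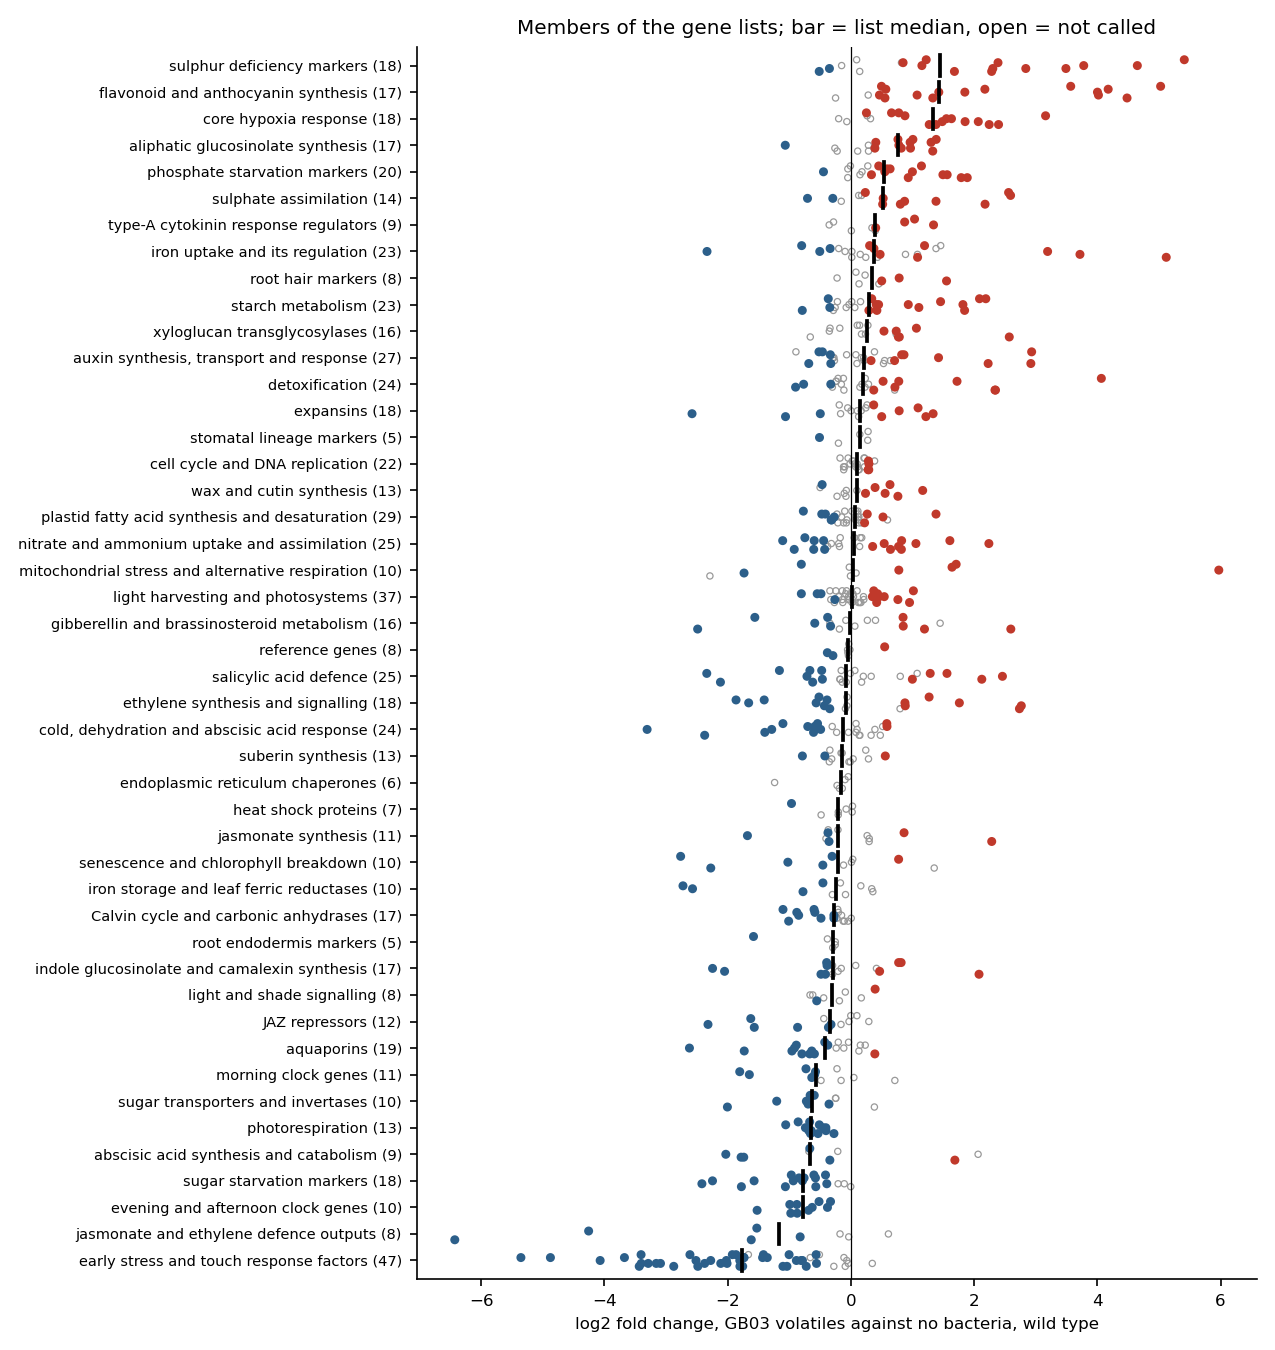
Log2 fold change of GB03 volatiles against no bacteria in wild type for each tested member of 46 gene lists with 5 or more tested members, ordered by list median (black bar), with filled points called by edgeR (red higher, blue lower) and open points not called. The sulphur deficiency, flavonoid and core hypoxia lists have medians of 1.45, 1.43 and 1.33, and the early stress list has a median of -1.76.

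Genes of carbon fixation, photorespiration and sugar transport were lower or not called, and starch genes rose in part. Photorespiration salvages the product that Rubisco makes when it binds oxygen, and its need falls when carbon dioxide is plentiful. All 13 photorespiration genes tested were lower, with a median of -0.64. AGT1, a peroxisomal serine-glyoxylate aminotransferase, was at 1427, 1416 and 1259 CPM without bacteria and 631, 645 and 696 CPM with volatiles (-1.06 ± 0.09, edgeR adjusted p 1.3e-06). HPR1, the peroxisomal hydroxypyruvate reductase, fell from 631 ± 17 to 349 ± 4.13 CPM (-0.85 ± 0.09, edgeR adjusted p 1.0e-05), GGAT1, the glutamate-glyoxylate aminotransferase, from 1206 ± 54.3 to 723 ± 24.9 CPM (-0.74 ± 0.08, edgeR adjusted p 1.2e-05), and CAT2, the leaf catalase that removes the peroxide formed, from 284 ± 19.8 to 177 ± 10.7 CPM (-0.68 ± 0.09, edgeR adjusted p 5.5e-05). The summed CPM of the list was 12030 to 12320 without bacteria and 7765 to 7897 with volatiles.

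Of 17 Calvin cycle and carbonic anhydrase genes, none was higher and 9 were lower, with a median of -0.28. CA1, the plastid carbonic anhydrase, was at 4119, 4069 and 4636 CPM without bacteria and 1853, 1895 and 2229 CPM with volatiles (-1.1 ± 0.11, edgeR adjusted p 4.0e-06), and CA2 fell from 962 ± 118 to 478 ± 56.3 CPM (-1.01 ± 0.12, edgeR adjusted p 2.6e-05). The Rubisco small subunit genes RBCS3B and RBCS2B were both lower. RBCS3B went from 4951 ± 718 to 2696 ± 217 CPM (-0.88 ± 0.11, edgeR adjusted p 3.5e-05), and RBCS2B went from 2685 ± 285 to 1493 ± 95.2 CPM (-0.85 ± 0.13, edgeR adjusted p 0.00017). Reads of these near-identical neighbours are uncertain where the counting could split them. FBA5, an aldolase listed by its difference in CPM, was at 884, 891 and 953 CPM without bacteria and 144, 148 and 159 CPM with volatiles (-2.6 ± 0.13, edgeR adjusted p 5.7e-09). Light harvesting and photosystem genes showed no common shift: of 37, 9 were higher and 4 lower, with a median of 0.02 that was -0.07 without treated replicate 3, 0.08 without untreated replicate 3 and 0.06 under upper-quartile normalization. LHCB1.1 and LHCB1.2, near-identical antenna genes whose reads are uncertain in the same way, rose from 1271 ± 239.8 to 2568 ± 114 CPM (1.01 ± 0.12, edgeR adjusted p 2.6e-05) and from 2129 ± 269.6 to 4120.0 ± 231 CPM (0.95 ± 0.10, edgeR adjusted p 6.7e-06). LHCB2.3, an antenna gene of another subfamily, rose from 107 ± 11.4 to 181 ± 17.3 CPM (0.76 ± 0.10, edgeR adjusted p 3.3e-05), and LHCB7 fell from 12.6 ± 0.624 to 7.2 ± 0.542 CPM (-0.80 ± 0.14, edgeR adjusted p 0.00043).

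Of 23 starch genes, 12 were higher and 3 lower, with a median of 0.29. GBSS1, the granule-bound synthase that makes amylose, was at 5.81, 4.76 and 3.54 CPM without bacteria and 21.5, 22.8 and 21.2 CPM with volatiles (2.19 ± 0.15, edgeR adjusted p 1.1e-07). APL3, a large subunit of ADP-glucose pyrophosphorylase, was at 17.8, 17.8 and 16.2 CPM without bacteria and 67.3, 56.2 and 59.9 CPM with volatiles (1.82 ± 0.11, edgeR adjusted p 2.2e-08). GPT2, which imports glucose phosphate into plastids and answers to sugar, was at 4.53, 2.55 and 2.58 CPM without bacteria and 17.8, 13.6 and 10.4 CPM with volatiles (2.09 ± 0.23, edgeR adjusted p 1.2e-05). BAM5, a beta-amylase outside the plastid, was at 2.57, 0.201 and 0.287 CPM without bacteria and 4.07, 4.01 and 3.62 CPM with volatiles (1.85 ± 0.65, edgeR adjusted p 0.043). BAM5 lost its call without untreated replicate 2 or 3 or treated replicate 1, 2 or 3 (edgeR adjusted p 0.0648 to 0.171).

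Sugar starvation markers are the DIN genes and others that rise when a plant runs short of sugar. Of 18 tested, none was higher and 15 were lower, with a median of -0.77. SEN1 was at 20.9, 48.6 and 37.7 CPM without bacteria and 6.07, 6.51 and 7.43 CPM with volatiles (-2.42 ± 0.29, edgeR adjusted p 2.4e-05). AT3G15450, annotated as an aluminium-induced protein with YGL and LRDR motifs, was at 284, 432 and 318 CPM without bacteria and 40.5, 65.3 and 112 CPM with volatiles (-2.25 ± 0.30, edgeR adjusted p 6.2e-05). ASN1, the asparagine synthetase of dark and starved tissue, was at 7.98, 29.5 and 16.2 CPM without bacteria and 5.34, 5.26 and 5.11 CPM with volatiles (-1.78 ± 0.37, edgeR adjusted p 0.0023). TPS11, a trehalose phosphate synthase homologue, was at 69.7, 114 and 151 CPM without bacteria and 37.3, 39.1 and 35.8 CPM with volatiles (-1.57 ± 0.20, edgeR adjusted p 4.6e-05). Untreated replicate 1 was the lowest untreated library for each of these 4 genes. The sum over the list was 1410 CPM there, 2402 and 2237 CPM in the other untreated libraries and 996.2 to 1056 CPM with volatiles. Of 10 sugar transporters and invertases, none was higher and 7 were lower, with a median of -0.63. STP1, a hexose importer repressed by sugar, was at 145, 371 and 332 CPM without bacteria and 66.2, 75.2 and 70 CPM with volatiles (-2.0 ± 0.27, edgeR adjusted p 5.8e-05), again with untreated replicate 1 lowest among the untreated. STP13, a hexose importer linked to stress, fell from 52.7 ± 1.63 to 22.9 ± 3.89 CPM (-1.2 ± 0.12, edgeR adjusted p 2.9e-06). SWEET12, an exporter that loads sucrose to the phloem, fell from 51.7 ± 6.01 to 31.4 ± 3.55 CPM (-0.72 ± 0.10, edgeR adjusted p 9.8e-05). STP4, another hexose importer, went from 93.8 ± 15.3 to 58 ± 2.08 CPM (-0.69 ± 0.12, edgeR adjusted p 0.00046).

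Early stress and touch response factors had the lowest median of the 48 lists with a tested member. These ERF, WRKY, ZAT and CBF factors and calmodulin-like proteins rise within minutes of wounding, handling, cold or microbial signals. Of 47 tested, none was higher and 38 were lower, against 15.3% of all genes, with a median of -1.76. ORA47, which activates jasmonate synthesis, was at 22.3, 4.96 and 2.29 CPM without bacteria and 0.20, 0.329 and 0.194 CPM with volatiles (-5.35 ± 1.23, edgeR adjusted p 0.0042). Its SD without bacteria exceeded its mean, and limma-voom did not call it (adjusted p 0.13). ERF2 was at 79, 26.6 and 15.3 CPM without bacteria and 1.67, 1.71 and 0.776 CPM with volatiles (-4.88 ± 0.62, edgeR adjusted p 3.7e-05). WRKY40, a repressor induced by microbial signals, was at 107, 59.1 and 25.8 CPM without bacteria and 4.41, 4.47 and 2.65 CPM with volatiles (-4.07 ± 0.43, edgeR adjusted p 7.0e-06). ERF13 was at 18.1, 7.78 and 2.87 CPM without bacteria and 1.0, 0.79 and 0.517 CPM with volatiles (-3.67 ± 0.64, edgeR adjusted p 0.00054), ERF105 at 80, 42.4 and 16.4 CPM without bacteria and 5.41, 4.87 and 2.71 CPM with volatiles (-3.43 ± 0.48, edgeR adjusted p 8.7e-05) and ERF104 at 236, 119 and 46.8 CPM without bacteria and 13.1, 11.8 and 13.2 CPM with volatiles (-3.4 ± 0.46, edgeR adjusted p 6.1e-05). In all 6 genes untreated replicate 1 was highest and untreated replicate 3 lowest. Every untreated library lay above every treated one, which the rule for the 12 largest falls required of these genes. The summed CPM of the list was 3484, 3444 and 2206 without bacteria and 1320, 1115 and 965.9 with volatiles. Leaving out 1 library moved the list's median from -2.02 (without untreated replicate 3) to -1.33 (without untreated replicate 1), with 32 to 39 members called lower. The labels do not record how the seedlings of each replicate were handled at harvest, and its part in these values was not tested.

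**Figure D3:**
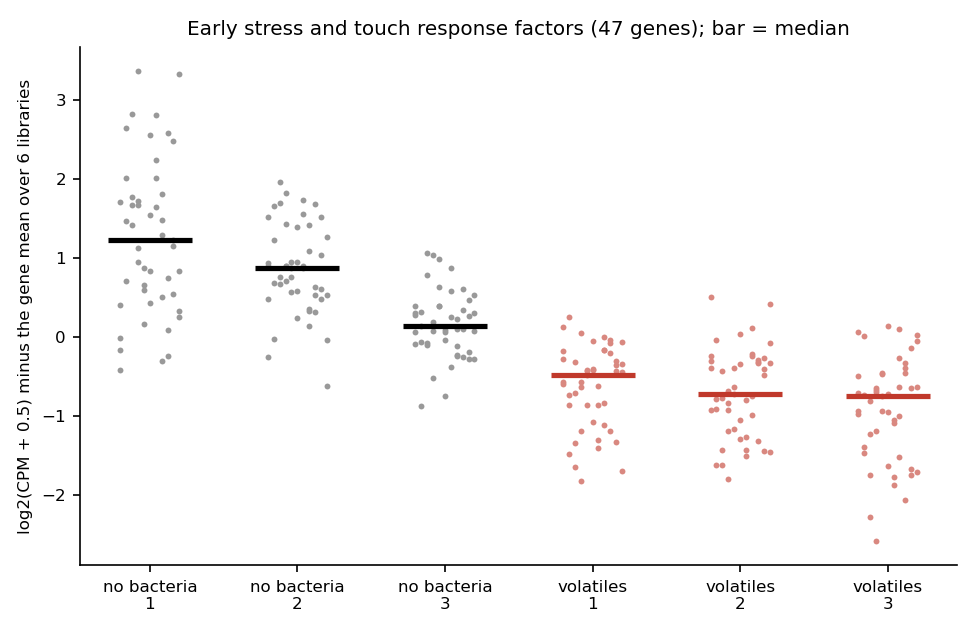
Log2(CPM + 0.5) of each of the 47 tested early stress and touch response factors relative to its mean over the 6 wild-type libraries, by library, with the median as a bar. The medians were 1.22, 0.87 and 0.13 in untreated replicates 1, 2 and 3 and -0.48, -0.73 and -0.75 in the treated ones.

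The other genes among the 12 largest falls are RAB18, described with abscisic acid, and 5 more. HSPRO2, a homologue of a sugar beet nematode resistance gene, was at 483, 615 and 372 CPM without bacteria and 56.7, 38.1 and 26.8 CPM with volatiles (-3.6 ± 0.27, edgeR adjusted p 2.3e-07). AT1G72910, annotated with a Toll-interleukin resistance domain, was at 88, 48.1 and 22.6 CPM without bacteria and 4.27, 4.21 and 3.69 CPM with volatiles (-3.71 ± 0.50, edgeR adjusted p 6.6e-05), ordered over the untreated replicates as the ERF genes were. AT5G35777, annotated as an uncharacterised protein, was at 21.2, 27.8 and 24.9 CPM without bacteria and 1.47, 0.658 and 0.776 CPM with volatiles (-4.66 ± 0.27, edgeR adjusted p 2.2e-08). AT1G24147, annotated as an unknown protein, was at 6.02, 4.76 and 6.31 CPM without bacteria and 0.134, 0.263 and 0.323 CPM with volatiles (-4.51 ± 0.37, edgeR adjusted p 5.6e-07). AT3G59480, annotated as a pfkB-like carbohydrate kinase, was at 10.5, 11.5 and 13.1 CPM without bacteria and 1.07, 1.25 and 1.03 CPM with volatiles (-3.38 ± 0.17, edgeR adjusted p 5.7e-09). In these last 3 genes untreated replicate 1 was not the highest of its group, unlike in the ERF genes. CCL, a short-lived transcript known for circadian control of its decay, was at 1470.0, 1404 and 1466 CPM without bacteria and 476, 492 and 634 CPM with volatiles (-1.44 ± 0.13, edgeR adjusted p 1.7e-06).

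Among the largest rises outside the lists above, AT1G80130, annotated as a tetratricopeptide repeat protein, was at 0.811, 0.805 and 1.62 CPM without bacteria and 31, 34.7 and 37.4 CPM with volatiles (5.05 ± 0.21, edgeR adjusted p 1.4e-09). AT1G12030, annotated with a domain of unknown function, was at 0.135, 0.134 and 1.24 CPM without bacteria and 6.94, 10.7 and 12.5 CPM with volatiles (4.53 ± 0.51, edgeR adjusted p 1.3e-05), with untreated replicate 3 above the other untreated libraries. AT2G04050, annotated as a MATE efflux protein, was at 1.08, 1.01 and 1.34 CPM without bacteria and 20.2, 15.6 and 20.9 CPM with volatiles (4.07 ± 0.20, edgeR adjusted p 5.7e-09), and close copies of this gene lie beside it, so shared reads make its value uncertain. DIC3, a mitochondrial dicarboxylate carrier, was at 0.135, 0.067 and 0.0956 CPM without bacteria and 7.41, 7.44 and 5.24 CPM with volatiles (5.97 ± 0.55, edgeR adjusted p 1.8e-06), from 4 counts over the untreated libraries. DIC2, a second carrier of that family, went the other way at 161, 173 and 140.3 CPM without bacteria and 71.8, 44.8 and 26.2 CPM with volatiles (-1.73 ± 0.30, edgeR adjusted p 0.00059). Of 10 genes of mitochondrial stress and alternative respiration tested, 4 were higher and 2 lower, the other higher ones named by rule being AOX1C, an alternative oxidase (1.71), and AT2G21640, annotated as an unknown protein (1.64). The call of AOX1C was lost without untreated replicate 1 (edgeR adjusted p 0.0516). Of 24 detoxification genes, 8 were higher and 3 lower. GSTF6, a stress-induced glutathione transferase, was at 37.5, 22.5 and 41.3 CPM without bacteria and 161, 148 and 201 CPM with volatiles (2.34 ± 0.19, edgeR adjusted p 4.7e-07). DTX1, a MATE exporter, rose from 1.9 ± 0.347 to 6.34 ± 0.831 CPM (1.72 ± 0.17, edgeR adjusted p 3.6e-06). Whether DTX1 shares reads with AT2G04050 or its copies was not tested, so its value is uncertain too. CYP81D8 was called lower (-0.90) with overlapping groups.

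Jasmonate genes did not move as a block. Jasmonate is made from linolenic acid by lipoxygenases (LOX), AOS and further enzymes, JAZ proteins hold its transcription factors down until it accumulates, and JAZ genes are themselves induced by it. Of 11 synthesis genes, 2 were higher and 3 lower, and under upper-quartile normalization 4 were higher and 3 lower. LOX2, the plastid lipoxygenase of leaves, was at 125, 105 and 202 CPM without bacteria and 732, 688 and 683 CPM with volatiles (2.29 ± 0.20, edgeR adjusted p 1.1e-06), and AOS rose from 106 ± 5.42 to 192 ± 3.81 CPM (0.86 ± 0.08, edgeR adjusted p 2.6e-06). LOX4 fell from 50.6 ± 4.22 to 15.8 ± 7.69 CPM (-1.68 ± 0.28, edgeR adjusted p 0.00042). OPCL1, which activates a jasmonate precursor, was called lower (-0.37). Without untreated replicate 3 or treated replicate 2 or 3, OPCL1 was not called (edgeR adjusted p 0.0902 to 0.116). Of 12 JAZ genes, none was higher and 6 were lower, with a median of -0.34. JAZ1 was at 68.2, 57.7 and 38 CPM without bacteria and 22.2, 17 and 16.4 CPM with volatiles (-1.57 ± 0.18, edgeR adjusted p 1.4e-05). JAZ9 was at 24.5, 22.4 and 30.1 CPM without bacteria and 9.88, 7.57 and 7.43 CPM with volatiles (-1.62 ± 0.13, edgeR adjusted p 6.7e-07). JAZ7 was at 1.62, 3.35 and 3.44 CPM without bacteria and 0.868, 0.658 and 0.129 CPM with volatiles (-2.32 ± 0.52, edgeR adjusted p 0.0033). JAZ6 fell from 39.5 ± 3.56 to 21.7 ± 3.84 CPM (-0.86 ± 0.14, edgeR adjusted p 0.00033). Of 8 tested outputs of jasmonate and ethylene, none was higher and 5 were lower, a count of 3 with limma-voom, without both replicates 3 or without treated replicate 1 or 2, and of 2 without untreated replicate 1. MYC2, the main jasmonate factor, was at 92.5, 71.7 and 38.5 CPM without bacteria and 25.4, 24.4 and 16.7 CPM with volatiles (-1.62 ± 0.27, edgeR adjusted p 0.0004), ORA59, which joins jasmonate and ethylene signals, fell from 4.56 ± 1.09 to 1.6 ± 0.357 CPM (-1.53 ± 0.26, edgeR adjusted p 0.00046). VSP1, a storage protein marker, was called at -0.82. VSP1 lost its call without untreated replicate 1 or treated replicate 1 or 2 (edgeR adjusted p 0.0554 to 0.0851). The other 2, named after their values were seen, rest on few counts. ERF1, a factor induced by ethylene, was at 0.879, 0.201 and 0.574 CPM without bacteria and 0, 0.0658 and 0 CPM with volatiles, from 22 counts without bacteria and 1 count with volatiles (ratio 0.04, exact interval for counting error 0.00097 to 0.25). PDF1.2A, a defensin, had 25 counts without bacteria and 0 with volatiles. It was at 1.62, 0.067 and 0 CPM without bacteria and 0, 0 and 0 CPM with volatiles, at least 9.47-fold lower against a floor of 3 counts over the group, and nearly all of its counts came from untreated replicate 1.

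Salicylic acid genes were mixed as well: of 25, 5 were higher and 8 lower, with a median of -0.08 that was 0.04 without untreated replicate 2, 0.06 without treated replicate 1 and near 0 without treated replicate 3, and 3 were higher with limma-voom, without both replicates 3 or without untreated replicate 1 or 2 or treated replicate 3. WRKY70, a positive regulator, was at 46.1, 37.7 and 16.4 CPM without bacteria and 7.94, 6.12 and 5.95 CPM with volatiles (-2.34 ± 0.27, edgeR adjusted p 1.8e-05). CBP60G, which activates salicylic acid synthesis, was at 29.2, 15.3 and 8.22 CPM without bacteria and 3.94, 4.41 and 4.01 CPM with volatiles (-2.12 ± 0.33, edgeR adjusted p 0.00024). Both followed the untreated order of the early stress factors, with replicate 1 highest. DLO1, which hydroxylates salicylic acid, rose from 0.519 ± 0.207 to 1.55 ± 0.315 CPM (1.56 ± 0.32, edgeR adjusted p 0.0021), and NIMIN2, an NPR1-interacting protein, from 1.31 ± 0.326 to 3.18 ± 0.472 CPM (1.29 ± 0.22, edgeR adjusted p 0.00042).

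Abscisic acid (ABA) genes and its responses fell in part. ABA is made through NCED enzymes, broken down by CYP707A enzymes, and drives drought and cold genes. Of 9 genes of synthesis and breakdown tested, 1 was higher and 5 were lower. NCED3 was at 4.87, 3.15 and 6.79 CPM without bacteria and 1.47, 1.32 and 1.55 CPM with volatiles (-1.74 ± 0.34, edgeR adjusted p 0.0015). CYP707A3 was at 70.4, 62.8 and 18.4 CPM without bacteria and 15.2, 11.8 and 10.5 CPM with volatiles (-2.03 ± 0.37, edgeR adjusted p 0.00086), with untreated replicate 3 close to the treated values, CYP707A2 fell from 15.2 ± 3.57 to 4.42 ± 0.698 CPM (-1.78 ± 0.25, edgeR adjusted p 7.8e-05). CYP707A1 rose from 10.3 ± 1.1 to 33.6 ± 3.87 CPM (1.69 ± 0.11, edgeR adjusted p 6.3e-08). Of 24 cold, dehydration and ABA response genes, 2 were higher and 10 lower, with a median of -0.14, which was -0.23 without untreated replicate 1 and -0.02 without untreated replicate 3. RAB18 (AT5G66400; chromosome 5, 26518277 to 26519447 in TAIR10.1), a dehydrin that follows ABA closely, was at 44.5, 41.1 and 43.2 CPM without bacteria and 4.14, 4.08 and 4.78 CPM with volatiles (-3.31 ± 0.11, edgeR adjusted p 1.5e-10). RD26, a NAC factor of drought, was at 29.7, 48.1 and 47.8 CPM without bacteria and 9.95, 6.32 and 7.95 CPM with volatiles (-2.37 ± 0.20, edgeR adjusted p 6.5e-07). ABI1, a phosphatase that brakes ABA signalling and is induced by it, fell from 97.3 ± 34.4 to 40.1 ± 2.89 CPM (-1.28 ± 0.20, edgeR adjusted p 0.00023). RD29B, a gene of ABA and drought, went from 1.06 ± 0.182 to 0.394 ± 0.0637 CPM (-1.4 ± 0.31, edgeR adjusted p 0.0033). Aquaporins, the channels that carry water across the plasma membrane (PIP) and the vacuole (TIP), were mostly lower: of 19, 1 was higher and 11 were lower, with a median of -0.42. TIP2;3 was at 29.5, 31.3 and 29.2 CPM without bacteria and 4.47, 4.21 and 5.95 CPM with volatiles (-2.62 ± 0.12, edgeR adjusted p 3.8e-09). TIP2;2 was at 159, 185 and 189.6 CPM without bacteria and 51.9, 52.9 and 55.9 CPM with volatiles (-1.73 ± 0.09, edgeR adjusted p 9.8e-09). PIP2;2 and PIP2;3, neighbouring near-identical genes whose reads are uncertain, were called at -0.96 and -0.92.

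Clock genes of the evening all fell. The Arabidopsis clock passes from CCA1 and LHY at dawn through the PRR genes by day to TOC1, GI, LUX, ELF3 and ELF4 in the evening, and the morning factors bind the evening element, AAAATATCT, in evening promoters. All 10 evening and afternoon genes were lower, with a median of -0.78. PRR5 was at 105, 76.2 and 76.7 CPM without bacteria and 28.3, 32.6 and 29 CPM with volatiles (-1.52 ± 0.15, edgeR adjusted p 3.0e-06). ELF4 was at 89.6, 81.1 and 76.9 CPM without bacteria and 40, 41.9 and 42.7 CPM with volatiles (-0.99 ± 0.11, edgeR adjusted p 1.2e-05). FKF1, a blue-light receptor of flowering, was at 83.9, 72.8 and 64.9 CPM without bacteria and 40.4, 40 and 40.5 CPM with volatiles (-0.88 ± 0.12, edgeR adjusted p 6.0e-05). BOA, a relative of LUX, was at 17.3, 23.1 and 17 CPM without bacteria and 8.61, 10.3 and 10.6 CPM with volatiles (-0.97 ± 0.13, edgeR adjusted p 5.7e-05). In each of these genes all treated libraries lay below all untreated ones. Of 11 morning genes, none was higher and 6 were lower, with a median of -0.57. PRR9 (-1.8 ± 0.49, edgeR adjusted p 0.012) and RVE1 (-1.65 ± 0.24, edgeR adjusted p 0.00011) had the largest changes. PRR7 went from 150.5 ± 13.1 to 90.9 ± 19.1 CPM (-0.73 ± 0.14, edgeR adjusted p 0.0012), and LNK1 went from 30.6 ± 3.12 to 19.8 ± 3.05 CPM (-0.63 ± 0.16, edgeR adjusted p 0.007). The call of PRR9 was lost without untreated replicate 1 (edgeR adjusted p 0.0846). CCA1 and LHY, named after their values were seen, were not called at -0.48 and 0.05. The labels give no hour of harvest, so a difference in hour and a difference in clock gene level at 1 hour cannot be told apart.

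The 300 bases before the annotated gene start were searched in RefSeq assembly TAIR10.1 for the evening element on both strands. It was present in 50% of the windows of the 10 evening and afternoon genes and in 2.95% of the windows of all tested protein-coding genes. The windows of the 5 genes that hold it are shown 5′ to 3′ on the gene's strand, with the element (or its reverse complement, AGATATTTT) in capitals. They are chr5:24674663-24674962 (plus strand) for TOC1, chr3:17182742-17183041 (plus strand) for LUX, chr5:24003588-24003887 (plus strand) for BOA, chr5:8358547-8358846 (minus strand) for PRR5 and chr1:25508339-25508638 (plus strand) for FKF1.
TOC1: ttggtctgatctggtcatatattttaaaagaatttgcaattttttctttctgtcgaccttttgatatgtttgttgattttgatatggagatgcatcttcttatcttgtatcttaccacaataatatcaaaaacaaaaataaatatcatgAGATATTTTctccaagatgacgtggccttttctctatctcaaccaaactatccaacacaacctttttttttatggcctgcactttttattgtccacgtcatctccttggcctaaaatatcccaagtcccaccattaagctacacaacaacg
LUX: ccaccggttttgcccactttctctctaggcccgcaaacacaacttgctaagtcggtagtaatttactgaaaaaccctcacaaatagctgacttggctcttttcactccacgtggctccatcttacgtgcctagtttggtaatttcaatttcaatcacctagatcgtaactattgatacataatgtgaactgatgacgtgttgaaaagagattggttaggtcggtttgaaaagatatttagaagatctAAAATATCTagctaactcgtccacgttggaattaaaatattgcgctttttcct
BOA: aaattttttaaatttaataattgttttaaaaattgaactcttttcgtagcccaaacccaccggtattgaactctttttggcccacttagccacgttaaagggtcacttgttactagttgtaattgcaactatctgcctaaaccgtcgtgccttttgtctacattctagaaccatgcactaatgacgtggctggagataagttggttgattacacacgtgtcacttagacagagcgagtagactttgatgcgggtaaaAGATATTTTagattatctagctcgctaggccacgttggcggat
PRR5: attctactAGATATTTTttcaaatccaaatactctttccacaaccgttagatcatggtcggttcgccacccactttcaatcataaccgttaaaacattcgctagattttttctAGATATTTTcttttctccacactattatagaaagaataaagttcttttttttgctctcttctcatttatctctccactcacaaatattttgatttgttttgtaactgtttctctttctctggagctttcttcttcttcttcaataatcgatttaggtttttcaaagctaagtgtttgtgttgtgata
FKF1: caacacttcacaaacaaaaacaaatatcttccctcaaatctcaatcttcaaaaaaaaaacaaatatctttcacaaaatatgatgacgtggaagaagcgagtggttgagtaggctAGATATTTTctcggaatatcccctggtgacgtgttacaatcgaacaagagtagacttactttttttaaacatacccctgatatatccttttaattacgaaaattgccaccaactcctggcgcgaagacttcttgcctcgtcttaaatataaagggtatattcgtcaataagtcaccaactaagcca
The element starts 151 bases before the gene start in TOC1, 53 in LUX, 43 in BOA and 186 in FKF1, and at 292 and 187 bases in PRR5. Of the 10 genes, LUX had the smallest change (-0.33) and PRR5 the largest (-1.52), and ELF4, at -0.99, has no match in this window.

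The palindrome CACGTG, the G-box bound by bHLH and bZIP factors, was present in 35.3% of the flavonoid and anthocyanin windows against 7.93% of all. Shares in other lists ran from 0%, as in aquaporins, to 50%, as in endoplasmic reticulum chaperones. The palindrome was in 45.5% of the morning clock windows, a list with no member called higher. Of the anthocyanin genes named by rule, DFR (chr5:17166033-17166332, minus strand) and UGT79B1 (chr5:21938397-21938696, minus strand) hold it, and it is in capitals in their windows.
DFR: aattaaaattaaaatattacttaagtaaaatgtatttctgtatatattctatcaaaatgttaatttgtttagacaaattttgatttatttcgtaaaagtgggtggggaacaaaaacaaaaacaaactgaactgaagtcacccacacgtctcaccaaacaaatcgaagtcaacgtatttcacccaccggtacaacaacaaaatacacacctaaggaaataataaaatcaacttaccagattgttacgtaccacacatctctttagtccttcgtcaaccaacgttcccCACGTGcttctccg
UGT79B1: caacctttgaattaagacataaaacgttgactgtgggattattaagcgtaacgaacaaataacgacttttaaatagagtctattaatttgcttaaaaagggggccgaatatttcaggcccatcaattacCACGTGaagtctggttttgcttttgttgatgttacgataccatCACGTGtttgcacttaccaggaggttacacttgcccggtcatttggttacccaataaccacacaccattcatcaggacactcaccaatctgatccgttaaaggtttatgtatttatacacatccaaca
It starts 14 bases before the gene start in DFR and at 171 and 128 bases in UGT79B1. The shorter core GAGAC, tied to sulphur response, was in 33.3% of the sulphur deficiency windows and in 29.8% of all. In all, 7 motifs were searched over 48 lists, the pairs shown were picked after the shares were seen, and a match of letters is a description of the window only.

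Genes of growth moved in both directions, with the called XTH genes all higher. Of all genes tested, 14.8% were higher and 15.3% lower, and several counts in this paragraph lie near those shares. Auxin promotes cell expansion, with IAA and SAUR genes as its quick targets, and expansins and xyloglucan transglycosylases (XTH) loosen the cell wall. Of 27 auxin genes tested, 8 were higher and 5 lower, with 3 lower without untreated replicate 2. GH3.3, which conjugates auxin, was at 5.07, 6.77 and 9.18 CPM without bacteria and 18, 18.4 and 18.9 CPM with volatiles (1.42 ± 0.17, edgeR adjusted p 1.8e-05), and IAA3 rose from 28.6 ± 6.5 to 52 ± 2.33 CPM (0.86 ± 0.19, edgeR adjusted p 0.0027). IAA5 (2.93 ± 0.39, edgeR adjusted p 5.9e-05) and SAUR15 (2.23 ± 0.37, edgeR adjusted p 0.00035) rose from under 1 CPM. Of 18 expansins, 6 were higher and 3 lower, with 3 higher without untreated replicate 2 and 1 lower without untreated replicate 1. EXPA8 was at 57.5, 42.4 and 31.9 CPM without bacteria and 6.41, 6.45 and 9.31 CPM with volatiles (-2.58 ± 0.23, edgeR adjusted p 1.2e-06). EXPA5 was at 16.5, 19.2 and 19.9 CPM without bacteria and 38.1, 39 and 41 CPM with volatiles (1.09 ± 0.12, edgeR adjusted p 1.3e-05). EXLA1 was at 16.1, 62.4 and 80 CPM without bacteria and 117, 115 and 134 CPM with volatiles (1.22 ± 0.41, edgeR adjusted p 0.035), and EXLA2 at 3.52, 8.85 and 13.8 CPM without bacteria and 20.6, 22.2 and 21.2 CPM with volatiles (1.33 ± 0.36, edgeR adjusted p 0.011), both with untreated replicate 1 far below the other untreated libraries. Without untreated replicate 1 or 2 or treated replicate 1, 2 or 3, EXLA1 was not called (edgeR adjusted p 0.0592 to 0.0743). Of 16 XTH genes, 6 were higher and none was lower. XTH9 was at 165, 306 and 354 CPM without bacteria and 513, 563 and 649 CPM with volatiles (1.06 ± 0.25, edgeR adjusted p 0.0049). XTH4 was at 262, 426 and 428 CPM without bacteria and 554, 581 and 768 CPM with volatiles (0.77 ± 0.19, edgeR adjusted p 0.0063). XTH16 was at 43.2, 92 and 87 CPM without bacteria and 108, 129 and 145 CPM with volatiles (0.79 ± 0.24, edgeR adjusted p 0.022), again lowest in untreated replicate 1. XTH16 lost its call without untreated replicate 1 or treated replicate 2 or 3 (edgeR adjusted p 0.0536 to 0.0689). XTH33 rose from 1.57 ± 1.38 to 8.57 ± 3.35 CPM (2.57 ± 0.42, edgeR adjusted p 0.00036). Of 16 gibberellin and brassinosteroid genes, 4 were higher and 5 lower, with GA20OX1, a step towards active gibberellin, at 0.541, 0.738 and 0.478 CPM without bacteria and 3.07, 4.41 and 3.43 CPM with volatiles (2.6 ± 0.30, edgeR adjusted p 1.9e-05) and DWF4, which limits brassinosteroid synthesis, going from 21.4 ± 1.63 to 49 ± 3.43 CPM (1.2 ± 0.13, edgeR adjusted p 1.0e-05). GA2OX1, which inactivates gibberellin, fell from 2.58 ± 0.621 to 0.462 ± 0.182 CPM (-2.49 ± 0.40, edgeR adjusted p 0.00029). GA3OX2, a step towards active gibberellin, went from 4.1 ± 1.72 to 1.41 ± 0.913 CPM (-1.56 ± 0.40, edgeR adjusted p 0.0078). The call of GA3OX2 was lost without untreated replicate 1 (edgeR adjusted p 0.0533). Of 9 type-A response regulators, which are quick targets of cytokinin, 4 were higher and none was lower, and ARR15 (1.34), ARR7 (1.03), ARR6 (0.87) and ARR9 (0.40) made up that count. Without untreated replicate 1 or 3 or treated replicate 3, ARR9 was not called (edgeR adjusted p 0.0795 to 0.135). Of 22 cell cycle and replication genes, 4 were higher and none was lower. These were MCM2 (0.29), MCM5 (0.29), MCM3 (0.29) and CYCD3;1 (0.28), a count of 0 without untreated replicate 2 or treated replicate 1, of 1 without untreated replicate 1 and of 6 without both replicates 3. The groups of MCM3 and CYCD3;1 overlapped.

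Mineral nutrients other than sulphur and iron gave the following counts. Of 20 phosphate starvation markers tested, 12 were higher and 1 was lower, with a median of 0.54. AT4, a non-coding RNA that moderates the phosphate response, was at 2.97, 3.35 and 2.49 CPM without bacteria and 9.54, 9.08 and 14.4 CPM with volatiles (1.89 ± 0.23, edgeR adjusted p 3.2e-05). PAP17, an acid phosphatase, was at 9.33, 5.97 and 5.83 CPM without bacteria and 24.4, 19.2 and 19.5 CPM with volatiles (1.56 ± 0.17, edgeR adjusted p 8.7e-06), MGD3, which makes galactolipids in place of phospholipids, rose from 1.07 ± 1.12 to 3.92 ± 0.473 CPM (1.79 ± 0.43, edgeR adjusted p 0.0058) and PS2, a phosphatase, from 2.26 ± 0.855 to 6.5 ± 1.89 CPM (1.49 ± 0.40, edgeR adjusted p 0.011). PS2 lost its call without untreated replicate 2 or treated replicate 1 (edgeR adjusted p 0.0515 to 0.0579). The SD of MGD3 without bacteria exceeded its mean, and MGD3 was not called without both replicates 3 (edgeR adjusted p 0.0505). PHO2, which lowers phosphate uptake and was named after its values were seen, was the lower one (-0.44), and it was not called without untreated replicate 2 or treated replicate 3. Of 25 nitrate and ammonium genes tested, 9 were higher and 7 lower. NRT1.8, which removes nitrate from the xylem, was at 1.28, 2.28 and 3.44 CPM without bacteria and 10.2, 10.5 and 11.1 CPM with volatiles (2.24 ± 0.28, edgeR adjusted p 3.6e-05). NRT2.1, the high-affinity root importer, was at 5.14, 2.62 and 6.6 CPM without bacteria and 15, 13.2 and 14.5 CPM with volatiles (1.61 ± 0.25, edgeR adjusted p 0.00026), AMT1;3, an ammonium importer, rose from 17.5 ± 1.75 to 36.3 ± 4.91 CPM (1.06 ± 0.15, edgeR adjusted p 9.3e-05), and HRS1, a repressor of the nitrogen and phosphate responses, fell from 30.4 ± 2.95 to 14.1 ± 0.839 CPM (-1.11 ± 0.11, edgeR adjusted p 5.7e-06).

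Ethylene genes were mixed. Of 18, 6 were higher and 8 lower. ACS4 (2.77 ± 0.58, edgeR adjusted p 0.0022), ACS8 (2.74 ± 0.70, edgeR adjusted p 0.0085) and ACS5 (1.76 ± 0.60, edgeR adjusted p 0.036), which make the ethylene precursor, were called higher from means under 0.3 CPM, and the groups of ACS5 overlapped. The call of ACS5 was lost without untreated replicate 2 or 3 or treated replicate 1 or 3 (edgeR adjusted p 0.0722 to 0.157). ACS6, which is induced by stress and also in the early stress list, was at 116, 65.8 and 33 CPM without bacteria and 23.4, 18.23 and 17.65 CPM with volatiles (-1.86 ± 0.34, edgeR adjusted p 0.00082). The receptors ERS1 (-0.56) and ERS2 (-1.41) and the F-box genes EBF1 (-0.43) and EBF2 (-1.66), which ethylene induces, were called lower and were named after their values were seen.

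Lipid genes were examined because the series concerns a desaturase. Their counts stand beside 14.8% higher and 15.3% lower among all genes tested. Of 29 genes of plastid fatty acid synthesis and desaturation, 4 were higher and 6 lower, with a median of 0.07, which was 0.02 without untreated replicate 1, and 2 higher without both replicates 3 or without untreated replicate 2 or treated replicate 1 or 3. FAB2, the main stearoyl-ACP desaturase, was at 119.8, 119 and 129 CPM without bacteria and 181, 167 and 180.0 CPM with volatiles (0.52 ± 0.11, edgeR adjusted p 0.0021). FTM1, a desaturase of the same family that is also in the hypoxia list, was at 21, 19.1 and 33.5 CPM without bacteria and 71.3, 66.1 and 52.4 CPM with volatiles (1.38 ± 0.20, edgeR adjusted p 0.00015), and AT5G16240, a further member of the family by its annotation, fell from 12.5 ± 1.55 to 8.96 ± 0.136 CPM (-0.47 ± 0.13, edgeR adjusted p 0.01). FAD4, which desaturates plastid phosphatidylglycerol, fell from 18.4 ± 2.13 to 10.7 ± 0.596 CPM (-0.77 ± 0.14, edgeR adjusted p 0.001). Of 13 wax and cutin genes tested, 6 were higher and 1 was lower, with CYP86A2, a hydroxylase of cutin monomers, at 46.1, 64.2 and 112 CPM without bacteria and 155, 169 and 174 CPM with volatiles (1.17 ± 0.22, edgeR adjusted p 0.001), KCS1, which elongates fatty acids, at 45.8, 90.72 and 84.8 CPM without bacteria and 125, 128 and 122 CPM with volatiles (0.76 ± 0.18, edgeR adjusted p 0.0053), and CER6, the main wax elongase, at 120.3, 115 and 130.5 CPM without bacteria and 182, 193 and 193 CPM with volatiles (0.64 ± 0.09, edgeR adjusted p 7.3e-05). CER2, which assists CER6, rose from 24.8 ± 2.66 to 36.5 ± 4.54 CPM (0.56 ± 0.11, edgeR adjusted p 0.0011). Of 13 suberin genes, FAR5 was higher (0.56) and CYP86A1 (-0.42) and ABCG20 (-0.79) were lower.

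Of 10 senescence and chlorophyll breakdown genes tested, 1 was higher and 5 were lower. Counts in this paragraph stand beside 14.8% higher and 15.3% lower among all genes tested, and several lie near those shares. ORE1, the NAC factor of leaf ageing, was at 30.8, 25.3 and 18.8 CPM without bacteria and 2.6, 5.26 and 3.23 CPM with volatiles (-2.76 ± 0.22, edgeR adjusted p 3.8e-07). NYC1, a chlorophyll b reductase, was at 464, 385 and 324 CPM without bacteria and 210.1, 183 and 186 CPM with volatiles (-1.02 ± 0.13, edgeR adjusted p 3.8e-05), and SAG29, a marker of late ageing, rose from 1.95 ± 0.522 to 3.31 ± 0.784 CPM (0.78 ± 0.26, edgeR adjusted p 0.034). NAP, another NAC factor, was called at -2.27 with overlapping groups. Without untreated replicate 1 or 2 or treated replicate 2, SAG29 was not called (edgeR adjusted p 0.0505 to 0.153). NAP lost its call without untreated replicate 1 or treated replicate 2 or 3 (edgeR adjusted p 0.0621 to 0.24). Without treated replicate 2 the count of lower members was 3. Of 7 heat shock genes, HSP17.4 (-0.96) was lower, a call lost whenever 1 library was left out, and of 6 endoplasmic reticulum chaperones none was called, with 2 called lower without untreated replicate 2 or treated replicate 1. Light and shade genes had HB2 higher (0.39) and HY5 lower (-0.55) among 8. The call of HB2 was lost without untreated replicate 1 or 3 or treated replicate 2 or 3 (edgeR adjusted p 0.0566 to 0.126). Without untreated replicate 1 or 2 or treated replicate 1, 2 or 3, HY5 was not called (edgeR adjusted p 0.0511 to 0.215). Of 8 root hair markers, RSL2, a bHLH factor of hair growth (1.55), EXPA18 (0.78) and EXPA7 (0.50) were higher, and without both replicates 3 the count was 5. EXPA7 lost its call without untreated replicate 2 or treated replicate 2 (edgeR adjusted p 0.0569 to 0.0759). Of the endodermis markers, CASP5, a Casparian strip protein, was lower (-1.58), and of the stomatal ones FAMA, which ends guard cell divisions, was lower (-0.52). Neither lateral root founder gene tested was called, with 1 called higher without treated replicate 2. Of 3 genes listed as targets in earlier work on GB03, 2 were tested, the sodium transporter HKT1 and the sugar sensor HXK1. The organs, conditions and directions of that work are not set beside the values here. HKT1 was at 6.83, 5.97 and 6.5 CPM without bacteria and 2.47, 1.45 and 2.46 CPM with volatiles (-1.59 ± 0.21, edgeR adjusted p 4.7e-05). HXK1 was at 71.5, 68.1 and 59.5 CPM without bacteria and 85.4, 82 and 79.5 CPM with volatiles (0.31 ± 0.09, edgeR adjusted p 0.016), with no overlap of the groups in either gene. The call of HXK1 was lost without untreated replicate 3 or treated replicate 1 (edgeR adjusted p 0.0552 to 0.062).

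The response was set beside that of gp1-2 by the interaction, the gp1-2 log2 fold change less the wild-type one, whose parts share no library. It was called for 2.8% of all genes tested and for 42 of the 182 genes named here. The named genes were chosen by their wild-type change, which enters the interaction, so nothing is read from that share. Responses with opposite signs and both called were those of JAZ7 (-2.32 for wild type, 1.36 for gp1-2), VSP1 (-0.82 and 1.15), HSP17.4 (-0.96 and 1.57) and DTX1 (1.72 and -1.02). The wild-type call of VSP1 was lost without some single libraries, and that of HSP17.4 whenever 1 wild-type library was left out. Reads that DTX1 may share with other MATE genes were not examined. Of the 17 flavonoid and anthocyanin genes 4 had a called interaction, among them LDOX (4.48 and 2.88; interaction -1.6 ± 0.21, edgeR adjusted p 0.00088) and DFR (5.03 and 3.77; interaction -1.26 ± 0.30, edgeR adjusted p 0.039). Of 37 light harvesting and photosystem genes, 17 had a called interaction. Of those 37, 28 were called lower in gp1-2, with a median of -0.53 there and 0.02 in wild type. An interaction was called in 11 of 47 early stress genes and in 6 of 17 indole and camalexin genes. In 7 of 17 Calvin cycle and carbonic anhydrase genes and in 3 of 13 photorespiration genes the interaction was called. CA1 (-1.1 and -1.79; interaction -0.69 ± 0.15, edgeR adjusted p 0.025) and AGT1 (-1.06 and -1.68; interaction -0.62 ± 0.13, edgeR adjusted p 0.018) fell by more in gp1-2. For the 4 sulphur deficiency genes named first, no interaction was called, with values from -1.23 for GGCT2;1 to -0.38 for SDI1, which does not show that the genotypes responded alike.

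**Figure D4:**
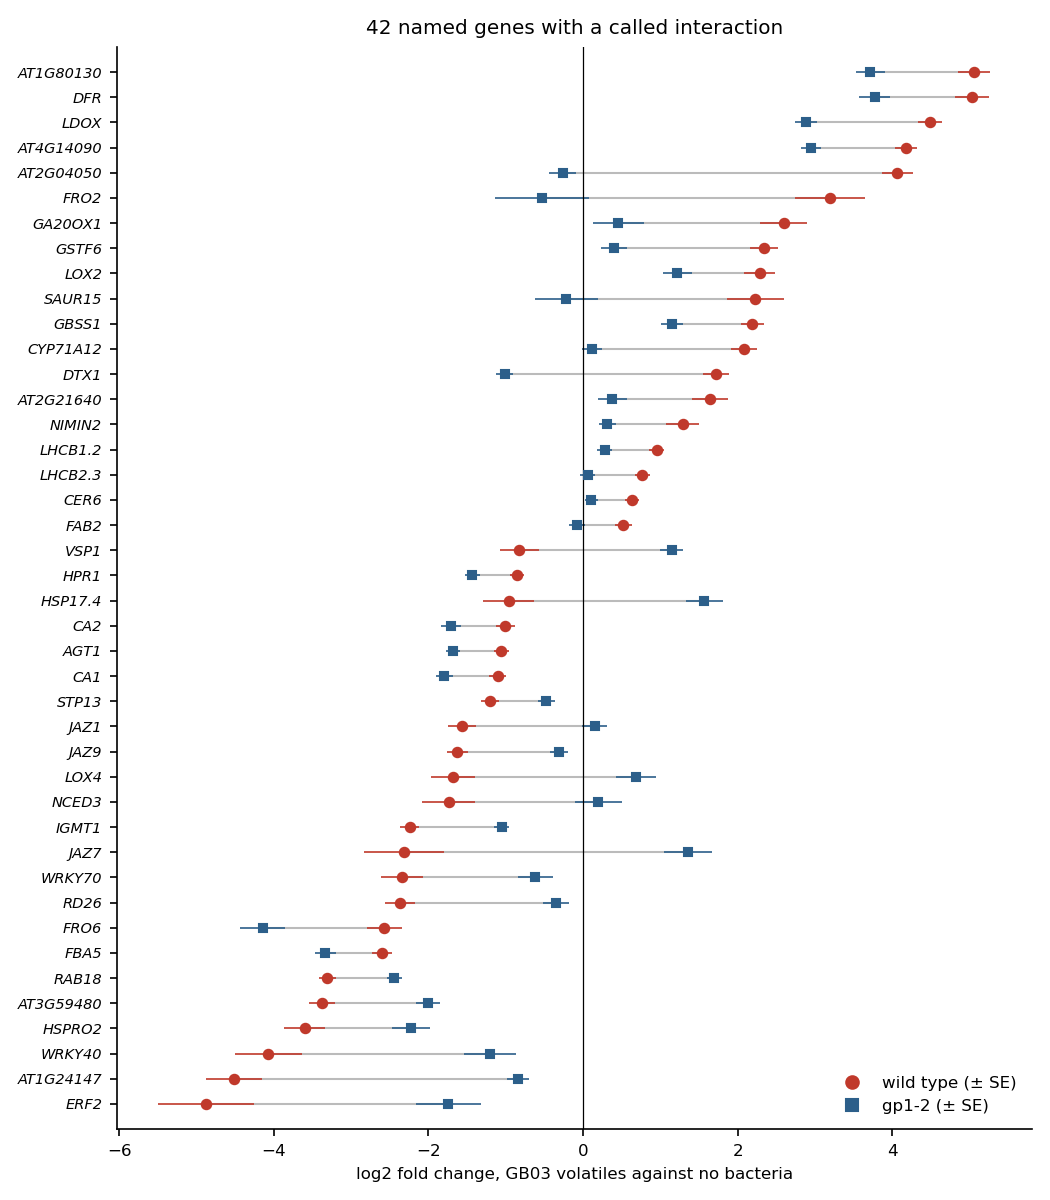
Log2 fold change with volatiles (± SE) in wild type (circles) and gp1-2 (squares) for the 42 named genes with a called interaction, ordered by the wild-type value. AT2G04050 has a wild-type value of 4.07 against -0.27 for gp1-2, and JAZ7, VSP1, HSP17.4 and DTX1 lie on opposite sides of 0 with both values called in the main fit.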

How the data were processed

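The authors deposited whole-number read counts per gene for 12 libraries, 3 per group. Per the submitters' processing notes, Trimmomatic 0.36, HISAT2 2.1.0 and HTSeq 0.9.1 were used with build TAIR10. Settings, annotation, library kit and strand are not given in the sources used here, so overlapping, antisense and near-identical genes are uncertain. Names and annotations came from the RefSeq table of TAIR10.1, which holds 32835 of the 33602 identifiers.

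Genes were kept by filterByExpr, scaled by TMM and compared by the quasi-likelihood F test of edgeR (edgeR 4.0.16, limma 3.58.1, DESeq2 1.42.0, R 4.3.3) with 1 coefficient per group in all 12 libraries, which leaves 8 residual degrees of freedom. P-values were adjusted by Benjamini-Hochberg over all genes. The standard error is the log2 fold change divided by the square root of F. On simulated counts of 20736 genes for volatiles in wild type, changes of 0.5, 1 and 2 on the log2 scale were called in 44.8%, 98.5% and 100% of 67, 67 and 66 changed genes, with 4.71% false calls. The simulation gave every gene a coefficient of variation of 0.109 between libraries and changed 200 genes, while 30.1% of genes were called in these data. Its rates therefore do not measure power or false calls here. Total counts per wild-type library limit precision at low CPM, and intervals cover counting error only.

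Genes named by rule are the 12 largest called rises and falls with a mean of at least 5 CPM in the higher group and no overlap of the groups, the 10 largest CPM differences among called genes with an absolute log2 fold change of 1 or more, and per list the 4 largest called changes with a mean of at least 1 CPM. Of 784 listed genes 742 passed the filter. The members and lists were chosen with earlier results of these data known. Alternatives were other normalizations, filters, tools, thinning, a replicate block, the wild-type libraries alone and each library left out. Leaving out both wild-type replicates 3 was added after seeing the data.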

Additional observations from a re-analysis of the deposited data

Results flagged for a closer look

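A difference between the genotypes flagged each of the following genes: the interaction, the gp1-2 log2 fold change less the wild-type one, passed an edgeR adjusted p of 0.05 over all genes. Values are the interaction and then the log2 fold changes in wild type and in gp1-2. Genes called higher in both genotypes, with the smaller rise in gp1-2, were LDOX (-1.6; 4.48 and 2.88), AT4G14090 (-1.23; 4.18 and 2.94), DFR (-1.26; 5.03 and 3.77), LOX2 (-1.07; 2.29 and 1.22), GBSS1 (-1.04; 2.19 and 1.15), AT1G80130 (-1.34; 5.05 and 3.71), LHCB1.2 (-0.67; 0.95 and 0.28) and NIMIN2 (-0.97; 1.29 and 0.31). Rises called in wild type alone were those of AT2G04050 (-4.33; 4.07 and -0.27), FRO2 (-3.73; 3.19 and -0.54), GA20OX1 (-2.14; 2.6 and 0.45), SAUR15 (-2.44; 2.23 and -0.22), CYP71A12 (-1.96; 2.08 and 0.12), GSTF6 (-1.94; 2.34 and 0.40), AT2G21640 (-1.27; 1.64 and 0.38), LHCB2.3 (-0.71; 0.76 and 0.06), FAB2 (-0.60; 0.52 and -0.08) and CER6 (-0.53; 0.64 and 0.11). A call in wild type alone does not by itself show a difference, which rests here on the interaction. Genes called lower in both genotypes, with the smaller fall in gp1-2, were ERF2 (3.13; -4.88 and -1.74), WRKY40 (2.87; -4.07 and -1.2), WRKY70 (1.72; -2.34 and -0.62), HSPRO2 (1.37; -3.6 and -2.23), AT1G24147 (3.67; -4.51 and -0.84), AT3G59480 (1.38; -3.38 and -2.0), JAZ9 (1.31; -1.62 and -0.31), IGMT1 (1.19; -2.24 and -1.05), RAB18 (0.87; -3.31 and -2.44) and STP13 (0.73; -1.2 and -0.48). Falls called in wild type alone were those of RD26 (2.03; -2.37 and -0.34), JAZ1 (1.72; -1.57 and 0.15), LOX4 (2.36; -1.68 and 0.68) and NCED3 (1.94; -1.74 and 0.20). Genes called lower in both genotypes, with the larger fall in gp1-2, were CA1 (-0.69; -1.1 and -1.79), CA2 (-0.70; -1.01 and -1.71), AGT1 (-0.62; -1.06 and -1.68), HPR1 (-0.58; -0.85 and -1.43), FBA5 (-0.73; -2.6 and -3.33) and FRO6 (-1.57; -2.57 and -4.14). Opposite directions, both called, were found for JAZ7 (3.67; -2.32 and 1.36), VSP1 (1.97; -0.82 and 1.15), HSP17.4 (2.53; -0.96 and 1.57) and DTX1 (-2.74; 1.72 and -1.02). The wild-type calls of VSP1 and HSP17.4 were lost in fits with 1 library left out, as given above. Reads that the MATE genes DTX1 and AT2G04050 may share with each other or with close copies were not examined. All 42 were chosen for their change in wild type, which enters the interaction. Untreated replicate 1 of wild type had the highest level of ERF2, WRKY40 and WRKY70 in its group, and its part in their interactions was not tested.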

How the results depend on the processing

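The 6245 calls in wild type became 6263 under RLE normalization, 6252 under upper-quartile normalization, 6295 with DESeq2, 6070 with limma-voom, 6087 without a filter on low counts, 6206 with a filter of 1 CPM, 5075 in the 6 wild-type libraries alone and 5849 after thinning to the shallowest library. An absolute log2 fold change of 1 or more left 1258, with 519 higher and 739 lower. Leaving out 1 library at a time gave 4633 to 6006 calls, with 2110 to 3021 higher and 2523 to 2985 lower, and leaving out both replicates 3, chosen after seeing the data, gave 5622, with 2336 higher and 3286 lower. Upper-quartile scaling moved the median of all genes by 0.038. Over the 48 lists and all alternatives, the count of members called higher moved by over 1.5 times in 68 cases and that called lower in 78, beside 748 and 738 that stayed. List medians moved by more than the spread of the list between replicates in 58 cases and by less in 758. Counts of 0 to 2 not given beside the lists moved by 1 or 2 members when a library was left out, in iron storage, JAZ, XTH, aquaporin, abscisic acid synthesis, morning clock, mitochondrial, wax, suberin and endodermis genes. The same held for the higher members of the jasmonate synthesis list and of the cold, dehydration and abscisic acid response list. No called gene changed sign in any of these alternatives. The labels number the replicates 1 to 3 in each group and do not say whether a number pairs libraries. Deviations of same-numbered wild-type libraries correlated across genes at -0.0528, 0.0707 and -0.0156. Such low values over all genes do not settle whether some genes share a replicate effect, and the main fit assumed no pairing. A replicate block gave 7138 calls in 12 libraries, with 3500 higher and 3638 lower, and 4493 in the 6 wild-type libraries, with 2084 higher and 2409 lower. Of the 182 named genes, 1 to 17 lost their call in an alternative, most (17) without untreated replicate 1, except that the replicate block in 12 libraries and the 1 CPM filter, which tested 180 of them, ended none. The causes were not tested. At 3 libraries per group, genes that changed by about 0.5 on the log2 scale can go uncalled. In the simulated counts, which had 1 spread for all genes and few changed genes, 44.8% of such changes were found.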
